A study of Mus musculus with 16 samples.

Results

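The genes described here are 43 members of the BMP, activin and TGF-beta signalling pathway, followed over 16 RNA sequencing libraries of the neonatal mouse cochlea. They were chosen by symbol from a list made by function, with earlier results of these data known. They stand among 47729 genes with values, and 42 of the 43 passed the filter on low values that left 16994 genes for testing. The libraries fall into 4 groups of 4, input and IP of control cochleae and input and IP of DTR cochleae, all from cochleae at postnatal day 4 (P4). All mice carried GLAST-CreERT/+ and Rpl22-HA/+ (the RiboTag allele), so that tamoxifen turns on a tagged ribosomal protein in GLAST-Cre+ cells, and the DTR mice carried the Lgr5-DTR-EGFP/+ allele as well. That allele places a receptor for diphtheria toxin (DTR), with EGFP, under the control of the Lgr5 locus, and diphtheria toxin (DT) kills the Lgr5+ supporting cells that carry the receptor. By the methods, DT and tamoxifen were given at P1 to mice of either genotype. The sample labels, however, mark the controls as untreated. Cochleae were pooled and homogenized. Input is RNA from 5% of a homogenate, and the other 95% went into the immunoprecipitation (IP) of tagged ribosomes with an antibody to HA. The presence of the knock-in allele and the loss of cells cannot be told apart, since only DTR cochleae had both. In pools of tissue, fewer cells of a type and less RNA per cell cannot be told apart either, and p-values measure the spread between pools.

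Ligands of this family are secreted dimers. They bring together a type II receptor and a type I receptor, which phosphorylates receptor-regulated Smads. BMP receptors act on Smad1, Smad5 and Smad9, activin and TGF-beta receptors act on Smad2 and Smad3, and both kinds join Smad4 in the nucleus. Smad6, Smad7 and the decoy receptor Bambi dampen the response, secreted proteins such as follistatin and noggin hold ligands away from receptors, and the Id genes are well-known BMP targets. In the developing cochlea, BMP4 is made on the outer side of the duct and takes part in setting up the sensory domain, and activin A, whose subunit is encoded by Inhba, promotes hair cell differentiation while follistatin (Fst) opposes it.

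Reads counted on genes ranged from 28089836 to 41966310 per library, and 3 reads, taken as the smallest level told from 0, corresponded to 0.0715 to 0.107 CPM, a limit that covers counting error only. The labelled cell type was checked against 5 genes of the greater epithelial ridge and inner phalangeal cells. In each genotype 3 of the 5 were lower in IP than in input and the other two were not called, with Slc1a3, the gene for GLAST itself, at an LFC of -0.20 in control (adjusted p = 0.102) and -0.27 in DTR (adjusted p = 0.0299). Of the 5 markers of organ of Corti supporting cells, Cdkn1b was higher in IP in both genotypes (LFC 1.41 and 1.66), while Lgr5 was lower in both and Fgfr3 in control. Of the markers of other cells, 7 of 7 endothelial and 7 of 7 macrophage genes were lower in IP in both genotypes. The other lists were mixed. In control IP, 8 of 10 hair cell, 4 of 5 Schwann cell, 2 of 3 pericyte, 5 of 9 mesenchyme and 1 of 5 neuron markers were lower. The hair cell markers Atoh1 and Espn were higher in IP in both genotypes, and the mesenchyme marker Pou3f4 was higher in DTR IP. LFC is the difference in log2(quantile-normalized CPM + 0.5) between group means, tested with limma over 16994 genes, and a change was called at an adjusted p under 0.05.

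Levels differed widely between the members. Per kilobase of merged exon, which allows genes to be compared, the median member stood at 8.85 CPM per kb in input and 12 in IP of control cochleae, and at 7.58 and 8.89 in those of DTR cochleae. Fstl1, a secreted glycoprotein of the follistatin family, was the most abundant in every group, with 567 ± 42.9 CPM per kb (SD, n = 4) in control input and 807 ± 39.5 in control IP. The targets Id3, Id2 and Id1 came next, in that order in all 4 groups, followed by Tgfb2, the most abundant ligand, with 111 ± 4.01 CPM per kb in control IP. Grem1, the BMP antagonist gremlin, was the least abundant in 3 of the 4 groups and the member that failed the filter, with 0 to 0.169 CPM in input and 0 to 0.425 CPM in IP of control cochleae, and 0.177 to 0.715 and 0 to 0.739 CPM in those of DTR cochleae. In DTR IP the lowest level belonged to Inhbb, which passed the filter through the control libraries alone. Its tests after damage therefore rest on a gene selected in the group where it was higher.

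**Figure D1:**
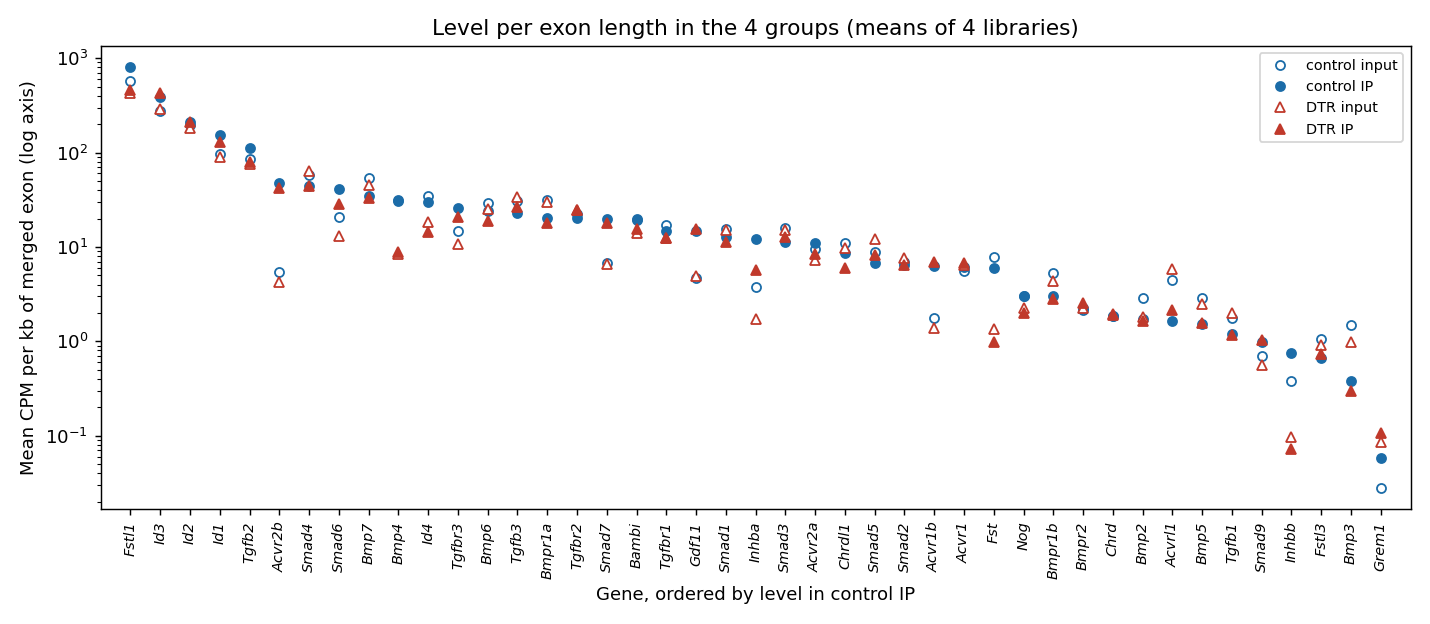
Mean CPM per kb of merged exon (log axis) of the 43 genes in control libraries (circles) and DTR libraries (triangles), open for input and filled for IP, each point the mean of 4 libraries, ordered by control IP. Fstl1 and Id3, Id2 and Id1 lead in every group, while Bmp4, Fst, Inhba and Inhbb show the DTR triangles below the control circles of the same sample type.

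The first question was which pathway genes differed between damaged and undamaged cochleae. In IP, 10 of the 42 tested members were lower in DTR (23.8%) and 1 was higher (2.38%), beside 7.30% and 8.44% of all tested genes. In input, 8 were lower (19.0%) and 1 was higher (2.38%), beside 5.21% and 7.17% of all tested genes. The median LFC of the members was -0.17 in IP and -0.22 in input, against -0.0043 and -0.021 over all tested genes. By role, the calls lay among ligands (Bmp4, Inhba and Inhbb in both sample types, Tgfb2 in IP and Bmp2 in input), antagonists (Fst and Fstl1 in both, Nog and Chrdl1 in IP), the inhibitor Smad6 and the target Id4. The 11 receptors gave 1 call, Tgfbr2, which was higher in IP, beside 8.44% of all tested genes. The 6 receptor-regulated and common Smads gave 1, Smad5, which was higher in input, beside 7.17%. Counts by role, here and below, are descriptions of few genes, and differences between roles were not tested. A large change, which also needed an absolute LFC of at least 1 and a smallest value of the higher group over 1.5 times the largest of the lower group, was met by 4 members in IP (Bmp4, Inhbb, Fst and Id4, beside 1.34% of all tested genes with a large decrease and 1.12% with a large increase) and by 2 in input (Bmp4 and Fst, beside 1.00% and 1.34%). Since Inhbb passed the filter on low values through the control libraries alone, its place in these counts of lower members rests on that selection.

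**Figure D2:**
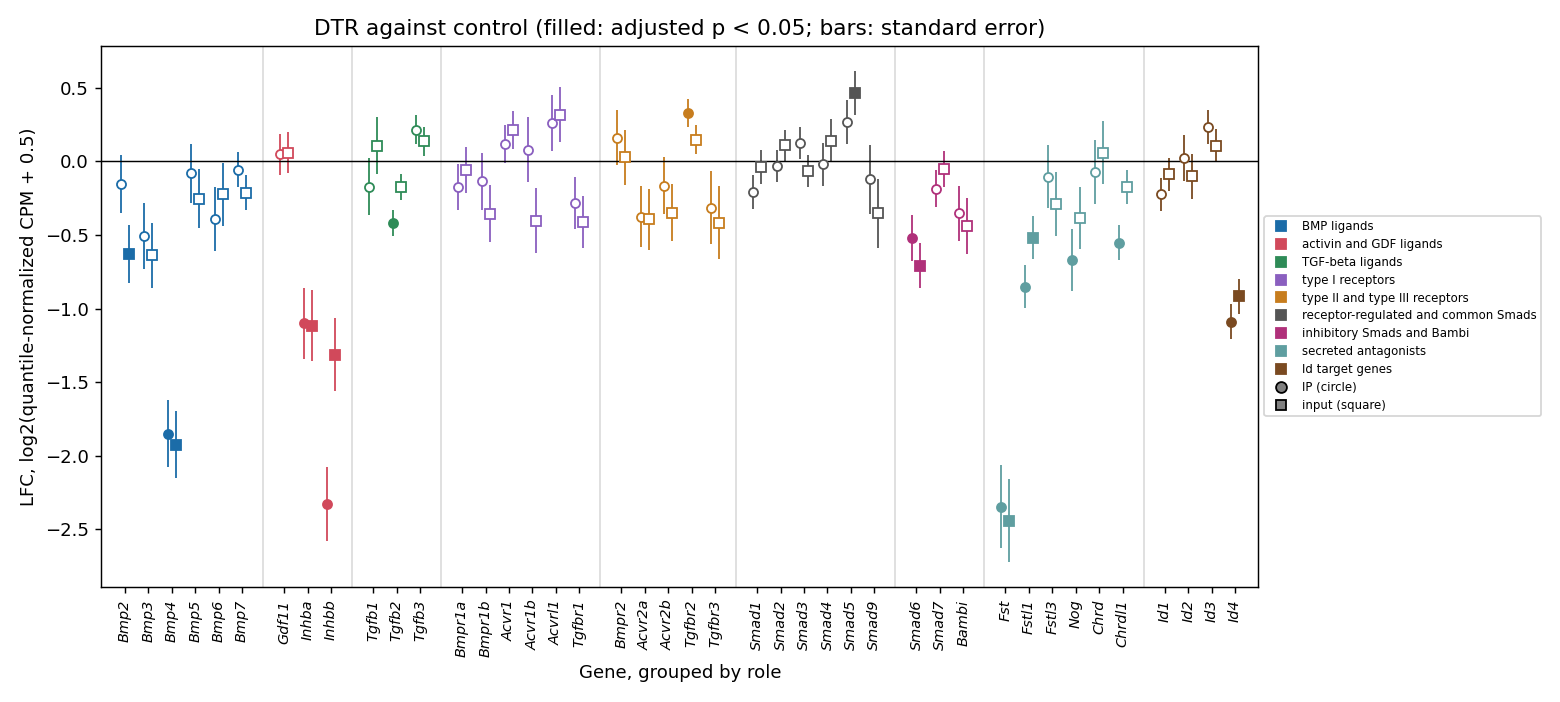
LFC of DTR against control (y axis, log2 scale) for the 42 tested members grouped by role, with circles for IP, squares for input, bars for the standard error and filled symbols for an adjusted p under 0.05. The lowest points are Fst, Inhbb and Bmp4, and receptors, receptor-regulated and common Smads lie between -0.42 and 0.47.

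Among the BMP ligands, 1 of 6 fell in IP and 2 of 6 in input. Bmp4 was present at 56.7, 66.7, 68.8 and 85.1 CPM in the 4 control input libraries and at 57.5, 59.3, 69.5 and 96.3 CPM in control IP. In DTR it was at 11.6, 16.7, 19.5 and 27.2 CPM in input and at 14.3, 18.6, 19.3 and 27.7 CPM in IP. The highest DTR library lay below the lowest control library in both sample types. The mean in DTR was 0.283 of the control mean in IP (LFC -1.85, SE 0.23, adjusted p = 1.16e-05) and 0.271 in input (LFC -1.93, SE 0.23, adjusted p = 7.06e-06). Bmp2, a close relative of Bmp4, was at 7.15, 8.72, 11.4 and 13.4 CPM in control input and 6.09, 6.09, 6.31 and 7.45 in DTR input. These ranges overlapped, and the call (LFC -0.63, SE 0.20, adjusted p = 0.0418) ended when control input replicate 1, 3 or 4, control IP replicate 1 or 3 or DTR input replicate 1, 3 or 4 was left out (adjusted p from 0.0519 to 0.162), and with no filter on low values (0.0745) and with the compared groups alone (0.0794). In IP Bmp2 was at 5.62, 5.98, 6.03 and 6.64 CPM in control and 4.83, 5.62, 5.83 and 7.30 in DTR, with an LFC of -0.15 (adjusted p = 0.669). Bmp3, Bmp5, Bmp6 and Bmp7 did not pass in either sample type, and Bmp3, a BMP that opposes other BMPs in bone, had LFCs of -0.51 in IP and -0.64 in input (adjusted p = 0.138 and 0.0713).

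Both activin subunits fell. Inhba encodes the beta A subunit that forms activin A, and its values were 16.7, 19.4, 29.2 and 31.8 CPM in control input and 58.0, 65.9, 87.1 and 95.8 CPM in control IP, against 8.97, 9.57, 12.4 and 13.1 CPM in DTR input and 25.2, 32.2, 42.6 and 46.8 CPM in DTR IP. No DTR library reached the lowest control library of its own sample type. The ratio of DTR to control means was 0.478 in IP (LFC -1.10, SE 0.24, adjusted p = 0.00367) and 0.453 in input (LFC -1.11, SE 0.24, adjusted p = 0.0038). Inhbb, which encodes the beta B subunit, was at 1.21, 1.42, 1.91 and 1.95 CPM in control input and 1.56, 2.81, 3.56 and 4.86 CPM in control IP. In DTR it was at 0.295, 0.358, 0.366 and 0.640 CPM in input and 0.0331, 0.263, 0.356 and 0.578 CPM in IP, where the lowest library held 1 read. The groups did not overlap, and the LFC was -2.33 in IP (SE 0.25) and -1.31 in input (SE 0.25). Inhbb passed the filter on low values through the control libraries alone, where it was higher, so no p-value of its fall is given. The ratio of DTR to control means was 0.0962 in IP and 0.255 in input, and since the level in DTR was close to the pseudocount, the LFCs understate these ratios. On recovered reads the input LFC of Inhbb was -1.98 with edgeR and -2.01 with DESeq2. Gdf11, a ligand that signals through activin receptors, had an LFC of 0.05 in IP and 0.06 in input, with adjusted p of 0.868 and 0.86.

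Among the TGF-beta ligands, 1 of 3 fell, and in IP. Tgfb2 was lower in DTR IP, with 437, 442, 473 and 491 CPM against 612, 638, 644 and 669 in control IP, which did not overlap (LFC -0.42, SE 0.09, adjusted p = 0.00246). Its LFC in input was -0.18 (adjusted p = 0.239), and the other two ligands, Tgfb1 and Tgfb3, passed in neither sample type.

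The secreted antagonist follistatin fell in both sample types. Fst was at 25.1, 29.0, 31.6 and 56.8 CPM in control input and at 13.5, 17.8, 30.8 and 47.3 CPM in control IP. In DTR its values were 5.01, 6.23, 6.88 and 6.97 CPM in input and 4.06, 4.40, 4.47 and 5.26 CPM in IP. The control libraries were spread widely, and even so the lowest control IP library stood above the highest DTR IP library. The DTR mean was 0.166 of the control mean in IP (LFC -2.35, SE 0.28, adjusted p = 8.51e-06) and 0.176 in input (LFC -2.44, SE 0.28, adjusted p = 5.39e-06). Fstl1 was at 3700.3, 3938, 4078 and 4137 CPM in control IP and 1934, 2247, 2390.2 and 2483 CPM in DTR IP, without overlap (LFC -0.85, SE 0.14, adjusted p = 0.00036). In input it was at 2487, 2819, 2860.0 and 2981 CPM in control and 2012, 2058, 2089 and 2309 CPM in DTR (LFC -0.52, SE 0.14, adjusted p = 0.0221), and that call ended when control input replicate 2 or 3 or DTR input replicate 3 was left out (adjusted p from 0.0532 to 0.0863), and with library medians centred (0.0827) and with no filter on low values (0.09).

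Chrdl1, a chordin-like BMP antagonist, was at 51.3, 53.9, 60.6 and 66.5 CPM in control IP and 36.7, 39.3, 41.8 and 44.3 CPM in DTR IP, also without overlap (LFC -0.55, SE 0.12, adjusted p = 0.0029). In input its values were 65.8, 69.0, 77.7 and 81.9 CPM in control and 58.3, 60.7, 67.3 and 75.3 CPM in DTR, which overlapped, with an LFC of -0.17 (adjusted p = 0.419). Noggin (Nog), which binds BMP4 and BMP7, was at 4.10, 4.11, 5.92 and 6.26 CPM in control IP and 2.41, 3.20, 3.75 and 4.24 CPM in DTR IP. These ranges overlapped at their edges and the call (LFC -0.67, SE 0.21, adjusted p = 0.038) ended when DTR IP replicate 1 or 2 or control IP replicate 2 or 4 was left out (adjusted p from 0.0652 to 0.131), and without quantile normalization (0.101), with library medians centred (0.0782), with no filter on low values (0.0865), with the compared groups alone (0.0984) and with edgeR (0.0705). Input values of Nog were 3.55, 4.79, 5.00 and 6.90 CPM in control and 3.35, 4.00, 4.05 and 4.08 CPM in DTR, with an LFC of -0.39 (adjusted p = 0.29). Chrd, which encodes chordin, and Fstl3 passed in neither sample type.

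Among the inhibitors inside the cell, Smad6 fell and Smad7 and Bambi did not pass. Smad6, which acts mainly on the BMP branch, was at 59.1, 66.4, 66.6 and 74.7 CPM in control input and 30.8, 35.8, 40.5 and 59.6 CPM in DTR input, where 1 DTR library overlapped the control range (LFC -0.71, SE 0.16, adjusted p = 0.00426). In IP it was at 111, 136, 138 and 138 CPM in control and 79.2, 84.8, 99.99 and 103 CPM in DTR, without overlap (LFC -0.52, SE 0.16, adjusted p = 0.028), and this call ended when control IP replicate 1, 2 or 4 or DTR IP replicate 1 or 3 was left out (adjusted p from 0.0628 to 0.082), and with no filter on low values (0.0646). Smad7, which acts on both branches, had LFCs of -0.18 in IP and -0.05 in input, and Bambi of -0.35 and -0.44, none of them called.

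Of the 4 Id genes, which encode inhibitors of basic helix-loop-helix factors, 1 fell. Id4 was at 115, 132, 136 and 146 CPM in control input and 94.0, 119.7, 123 and 124 CPM in control IP, against 57.5, 69.7, 71.7 and 80.9 CPM in DTR input and 48.3, 52.3, 58.9 and 61.5 CPM in DTR IP. Its groups did not overlap in either sample type, with an LFC of -1.09 in IP (SE 0.12, adjusted p = 3.03e-06) and -0.92 in input (SE 0.12, adjusted p = 2.38e-05). Id1, Id2 and Id3 were not called, with LFCs of -0.22, 0.02 and 0.23 in IP and -0.09, -0.10 and 0.11 in input. Id1 ranged over 162 to 197 CPM in control and 131 to 164 CPM in DTR for IP libraries.

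**Figure D3:**
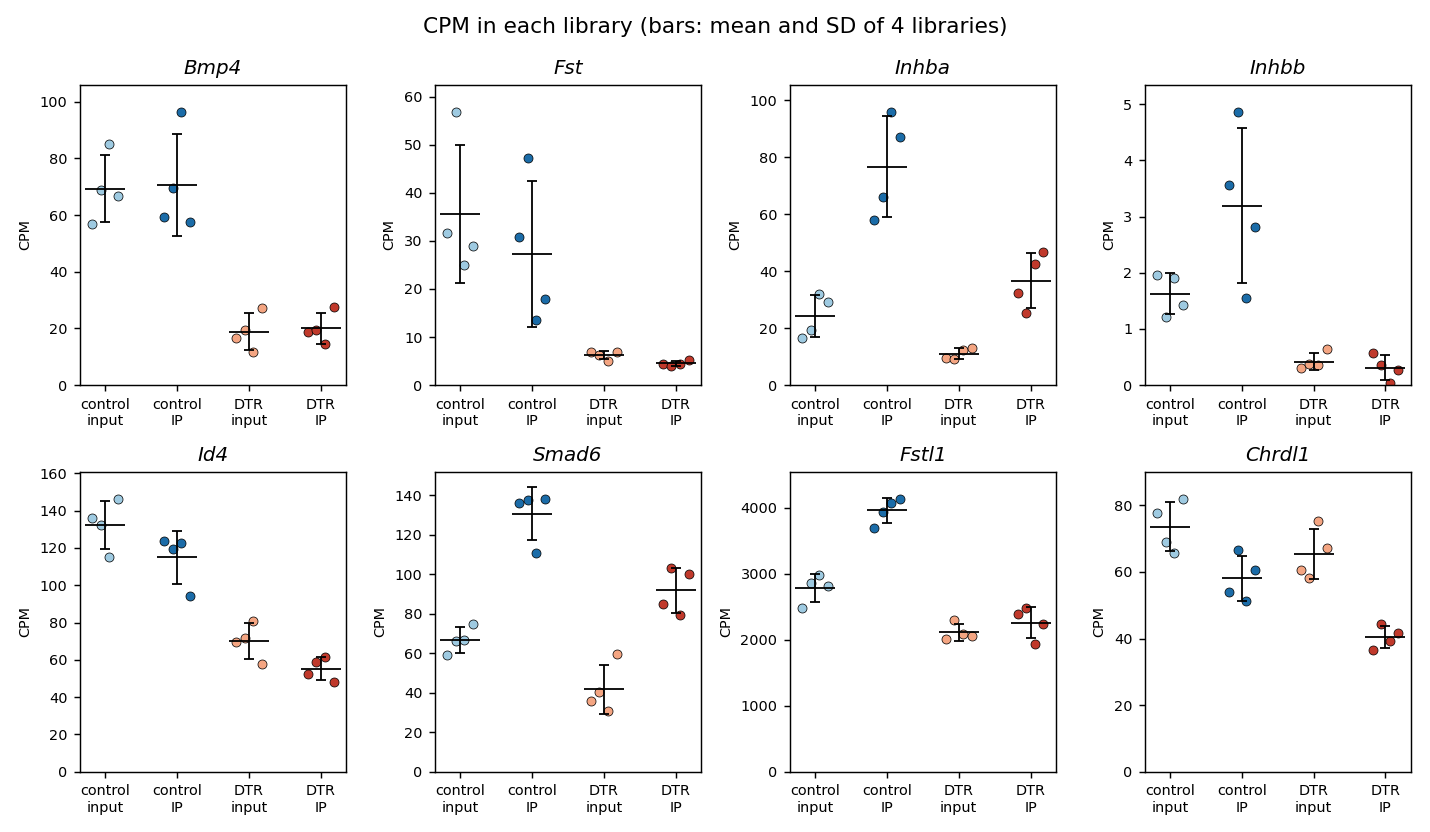
CPM (linear axis from 0) of Bmp4, Fst, Inhba, Inhbb, Id4, Smad6, Fstl1 and Chrdl1 in each of the 16 libraries, with horizontal bars for the mean and vertical bars for the SD of the 4 libraries of a group. DTR libraries lie below control libraries of the same sample type, with overlap for Smad6 and Chrdl1 in input, and Inhba and Smad6 also stand higher in IP than in input.

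Receptors, receptor-regulated and common Smads gave 2 calls after damage. Tgfbr2, the type II receptor for TGF-beta, was at 146, 165, 169 and 181 CPM in control IP and 185, 188, 215 and 223 CPM in DTR IP (LFC 0.33, SE 0.10, adjusted p = 0.0265), a call that ended when control IP replicate 2, 3 or 4 or DTR IP replicate 2 or 3 was left out (adjusted p from 0.0541 to 0.0708), and without quantile normalization (0.0533), with library medians centred (0.12), with the compared groups alone (0.0888), with edgeR (0.176) and with DESeq2 (0.165). Smad5, a BMP-branch Smad, was at 50.2, 60.6, 73.1 and 78.9 CPM in control input and 75.3, 87.3, 95.4 and 104 CPM in DTR input (LFC 0.47, SE 0.15, adjusted p = 0.0479), a call that ended when control input replicate 1, 3 or 4, control IP replicate 1, 2 or 3, DTR input replicate 1, 3 or 4 or DTR IP replicate 1 or 4 was left out (adjusted p from 0.0501 to 0.18), and without quantile normalization (0.0675), with library medians centred (0.0514), with no filter on low values (0.0954), with edgeR (0.0714) and with DESeq2 (0.0627). Neither of these higher calls held with edgeR or DESeq2, which called 9 and 11 members lower in IP and 8 and 9 lower in input. Of all 16994 tested genes, edgeR and DESeq2 called 1347 and 1539 lower in IP and 795 and 1065 lower in input. Across the 11 receptors the LFC ranged from -0.38 to 0.33 in IP and from -0.42 to 0.32 in input, and across the other five receptor-regulated and common Smads from -0.21 to 0.13 and from -0.35 to 0.14.

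Same-numbered libraries deviated together, and in a fit blocked on that number 12 members were called lower and 1 higher in DTR IP (beside 11.1% and 12.2% of all tested genes), and 10 lower and 1 higher in DTR input (beside 7.99% and 9.76%). The members that this block added were Bambi in both sample types (adjusted p = 0.0247 in IP and 0.00771 in input), Bmp6 in IP (LFC -0.39, adjusted p = 0.0236) and Acvr2b in input (LFC -0.35, adjusted p = 0.0353).

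The supporting cell markers fell in the same libraries. Of 5 markers of organ of Corti supporting cells (Lgr5, Fgfr3, Prox1, Hes5 and Cdkn1b), 5 were lower in DTR input and 4 in DTR IP, with Lgr5, the locus of the DTR allele, at LFCs of -2.004 and -1.93. For Lgr5 the effect of the knock-in on its own locus cannot be told from loss of cells. The summed level of the 5 markers, Lgr5 included, was 293 to 341 CPM in control input and 44.0 to 65.4 CPM in DTR input, while the IP libraries held 212 to 335 CPM in control and 73.1 to 98.2 CPM in DTR, and none was at 0 in any library. Of 5 Schwann cell markers, 3 were lower in DTR input and 2 in DTR IP, with sums of 1692 to 3094 CPM in control input and 768 to 1167 CPM in DTR input. Of 9 mesenchyme markers, 5 were higher in DTR IP and 2 in DTR input. Of all tested genes, 8.44% were higher and 7.30% lower in DTR IP, and 7.17% and 5.21% in DTR input. Of 7 macrophage markers, 3 were higher in DTR IP and 4 in DTR input, with sums of 74.3 to 84.5 CPM in control input and 96.7 to 158 CPM in DTR input. Greater epithelial ridge and inner phalangeal cell markers summed to 8238 to 12063 CPM in control input and 8324 to 10121 in DTR input. Their sums overlapped in IP too. Hair cell sums were 244 to 318 CPM in control IP and 341 to 382 in DTR IP, and overlapped in input. Endothelial sums were 97.9 to 122 CPM in control IP and 156 to 178 in DTR IP, and did not overlap in input either. Pericyte and neuron sums overlapped. The part of any of these cells in the decreases of Bmp4, Fst, Inhba, Inhbb and Id4 was not tested.

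Sequences before the start sites are shown for the members that fell by an LFC of at least 1 in either sample type and have an entry in the promoter table used here, which are 4 of the 5 members under that rule, since these moved together. They are the 250 bases before the RefSeq start (GRCm38.p6), 5′ to 3′ on the strand of the gene, on the minus strand for Bmp4 (chr14:46390670-46390919) and Inhbb (chr1:119422249-119422498) and on the plus strand for Inhba (chr13:16011601-16011850) and Id4 (chr13:48260866-48261115). The fifth is Fst. Capitals mark matches on either strand to 2 short motifs bound by Smads, CAGAC and GGCGCC, which do not overlap each other here.

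Bmp4: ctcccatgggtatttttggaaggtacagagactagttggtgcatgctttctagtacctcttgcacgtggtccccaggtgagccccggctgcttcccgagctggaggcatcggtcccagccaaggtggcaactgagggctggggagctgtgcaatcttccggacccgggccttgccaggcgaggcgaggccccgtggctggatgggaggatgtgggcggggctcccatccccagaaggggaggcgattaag

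Inhba: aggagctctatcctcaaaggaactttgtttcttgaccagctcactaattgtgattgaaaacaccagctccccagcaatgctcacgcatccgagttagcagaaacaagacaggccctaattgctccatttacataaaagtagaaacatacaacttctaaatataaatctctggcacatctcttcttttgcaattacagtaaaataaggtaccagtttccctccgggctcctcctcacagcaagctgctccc

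Inhbb: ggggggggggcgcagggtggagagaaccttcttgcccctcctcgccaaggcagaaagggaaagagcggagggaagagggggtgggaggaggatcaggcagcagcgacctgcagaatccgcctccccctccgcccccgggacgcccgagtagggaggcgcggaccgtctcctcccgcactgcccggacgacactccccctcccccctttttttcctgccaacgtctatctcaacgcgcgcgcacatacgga

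Id4: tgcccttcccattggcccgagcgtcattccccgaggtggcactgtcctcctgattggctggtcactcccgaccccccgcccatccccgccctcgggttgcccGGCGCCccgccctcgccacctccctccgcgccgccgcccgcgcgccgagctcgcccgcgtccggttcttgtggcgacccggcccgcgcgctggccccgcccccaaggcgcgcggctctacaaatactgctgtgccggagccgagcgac

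In these 4 windows there was 1 match, a GGCGCC in Id4. A CAGAC was found in 13 of 34 windows of the members (38.2%, from 29 members with a window) and in 42.2% of all 32851 windows of the same length, and a GGCGCC in 9 of 34 (26.5%) and in 9.59%. The windows were not matched for their content of G and C, the only bases in GGCGCC, and the difference in these shares was not tested. These matches are letters and not sites of binding, and members with several starts give windows that share sequence.

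Exons of 14 of the 43 members overlap another annotated gene in GENCODE M21, among them Bmp4, Fst and Id4, which overlap genes of the other strand. The library kit does not mark strand, so reads from both genes in the shared stretches cannot be told apart, and the values of these members are uncertain to that extent.

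The next question was which members differed between IP and input. In control, 11 of 42 tested members were higher in IP (26.2%) and 11 were lower (26.2%), beside 19.3% and 20.7% of all tested genes. In DTR, 10 were higher (23.8%) and 13 were lower (31.0%), beside 18.6% and 20.5%. The same 9 members were higher in both genotypes (81.8% of the 11 higher calls in control and 90% of the 10 in DTR), Acvr1b, Acvr2b, Gdf11, Id1, Id3, Inhba, Smad6, Smad7 and Tgfbr3. Another 9 were lower in both (81.8% of the 11 lower calls in control and 69.2% of the 13 in DTR), Acvrl1, Bmp3, Bmp5, Bmp7, Bmpr1a, Bmpr1b, Chrdl1, Smad5 and Tgfb3. No such shares over all tested genes were worked out, so these say nothing particular to the members. Large changes were met by 5 members upward (Gdf11, Inhba, Acvr1b, Acvr2b and Smad7) and 2 downward (Bmp3 and Acvrl1) in each genotype, beside 4.12% and 3.56% of all tested genes in control and 3.67% and 2.11% in DTR.

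**Figure D4:**
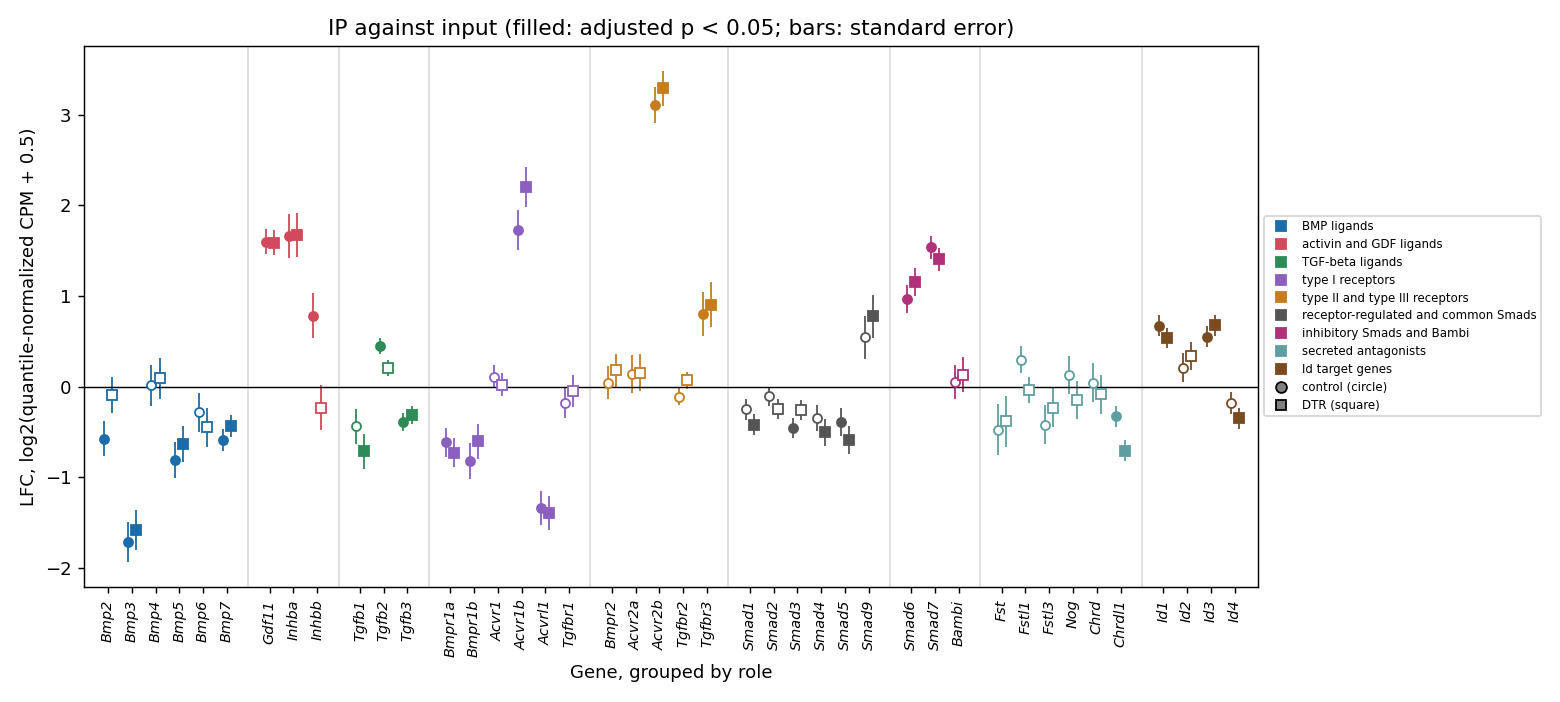
LFC of IP against input (y axis, log2 scale) for the 42 tested members grouped by role, with circles for control, squares for DTR, bars for the standard error and filled symbols for an adjusted p under 0.05. Acvr2b has the highest values, and circles and squares of a gene lie close together for most members.

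The highest LFC in both genotypes was that of Acvr2b. Acvr2b, a type II receptor for activins and related ligands, was at 14.8, 21.9, 23.7 and 24.8 CPM in control input and 152, 182, 185 and 225 CPM in control IP. In DTR it was at 13.7, 15.4, 18.6 and 19.4 CPM in input and 117, 159.6, 174 and 217 CPM in IP. The lowest IP library was several times the highest input library in each genotype, and the mean in IP was 8.72 times that in input in control (LFC 3.11, SE 0.20, adjusted p = 1.24e-09) and 9.95 times in DTR (LFC 3.29, SE 0.20, adjusted p = 6.69e-10). By CPM per kb, Acvr2b had rank 27 of the 43 members in control input and rank 6 in control IP. Its paralogue Acvr2a, in contrast, was at 54.2 ± 8.44 CPM in control input and 62.7 ± 23.8 CPM in control IP, with an LFC of 0.14 (adjusted p = 0.639).

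Acvr1b, the type I receptor used by activin, was at 6.57, 7.50, 8.53 and 8.90 CPM in control input and 18.2, 26.1, 32.8 and 33.1 CPM in control IP, and at 4.58, 6.15, 6.90 and 6.97 and 20.6, 27.0, 28.6 and 45.6 CPM in DTR input and IP. No input library reached any IP library, and the LFC was 1.72 in control (SE 0.22, adjusted p = 6.17e-06) and 2.20 in DTR (adjusted p = 4.68e-07). Gdf11 was at 15.8, 18.1, 19.6 and 23.3 CPM in control input and 45.3, 63.3, 63.8 and 66.0 CPM in control IP, and at 17.8, 19.6, 21 and 22.4 and 54.5, 57.3, 62.8 and 77.7 CPM in DTR input and IP. The ranges lay far apart in both genotypes (LFC 1.60, SE 0.14, adjusted p = 5.64e-08 in control and LFC 1.59, SE 0.14, adjusted p = 7.87e-08 in DTR). Inhba, whose values were given above, had an LFC of 1.66 in control (SE 0.24, adjusted p = 2.52e-05) and 1.67 in DTR (adjusted p = 2.73e-05). Inhbb was called in control (LFC 0.78, SE 0.25, adjusted p = 0.0175) and not in DTR (LFC -0.23, adjusted p = 0.49), and the call in control ended when control input replicate 2 or control IP replicate 2 was left out (adjusted p from 0.0635 to 0.0662), and with a pseudocount of 0.1 (0.073) and with edgeR (0.0571).

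Inhibitory Smads stood higher in IP. Smad7 was at 28.1, 29.8, 31.4 and 32.2 CPM in control input and 76.6, 82.3, 99.6 and 102 CPM in control IP, and at 22, 31.4, 31.6 and 35.5 and 71.0, 76.5, 81.5 and 92.6 CPM in DTR input and IP, with no overlap (LFC 1.54, SE 0.12, adjusted p = 2.39e-08 in control and LFC 1.40, SE 0.12, adjusted p = 8.82e-08 in DTR). Smad6 had an LFC of 0.97 in control (SE 0.16, adjusted p = 6.82e-05) and 1.16 in DTR (adjusted p = 1.26e-05). Bambi showed LFCs of 0.05 and 0.13, neither of them called. Of the 6 receptor-regulated and common Smads, 2 were lower in control IP and 3 in DTR IP. Smad3, which carries activin and TGF-beta signals, was lower in control IP (LFC -0.45, adjusted p = 0.00296), while Smad1 and Smad4 were lower in DTR IP (LFC -0.42 and -0.51). Smad5 was lower in both (-0.39 and -0.59), and its call in control ended when control input replicate 1, 2 or 3, control IP replicate 1 or 4 or DTR input replicate 1 or 3 was left out (adjusted p from 0.0526 to 0.152), and without quantile normalization (0.0591), with no filter on low values (0.0954), with the exon length trend removed (0.131), with edgeR (0.0866) and with DESeq2 (0.0621). Smad2 was called in neither genotype. Smad9 was higher in DTR IP, with an LFC of 0.78 in DTR (adjusted p = 0.0136) that rested on 1 library, since without DTR IP replicate 3 it was 0.51 (adjusted p = 0.0528).

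Among the targets, Id1 was higher in IP in both genotypes (LFC 0.67 in control and 0.54 in DTR), as was Id3 (0.55 and 0.68), and their ranges in input and IP did not overlap. Id1 was at 112 ± 12.3 CPM in control input and 176 ± 15.0 CPM in control IP, and Id3 at 498 ± 37.5 and 693 ± 91.7 CPM. Id2 was not called (LFC 0.21 and 0.33), and Id4, not called in control (LFC -0.18), was lower in IP in DTR (LFC -0.35, SE 0.12, adjusted p = 0.0258), a call that ended when DTR IP replicate 1 or 4 or DTR input replicate 2 or 3 was left out (adjusted p from 0.0638 to 0.0992), and with the compared groups alone (0.0628).

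Several BMP ligands and type I receptors lay on the other side. Bmp3 was at 10.6, 11, 11.3 and 11.3 CPM in control input and 2.26, 2.39, 3.23 and 3.26 CPM in control IP, and at 5.88, 7.58, 7.75 and 7.86 and 1.26, 1.58, 2.99 and 3.08 CPM in DTR input and IP. All IP libraries stood below all input libraries (LFC -1.72, SE 0.22, adjusted p = 6.85e-06 in control and LFC -1.59, SE 0.22, adjusted p = 1.98e-05 in DTR). Bmp5 and Bmp7 were also lower, with LFCs of -0.81 and -0.59 in control and -0.64 and -0.43 in DTR, the call of Bmp5 in DTR ending when DTR IP replicate 1 or DTR input replicate 2 was left out (adjusted p from 0.0508 to 0.0674). Bmp2 was lower in control IP, by the values given above (LFC -0.57, SE 0.20, adjusted p = 0.0261), and that call ended when control IP replicate 1 or 2 or control input replicate 3 or 4 was left out (adjusted p from 0.0507 to 0.106), and with no filter on low values (0.0516). Bmp4 was not called, with LFCs of 0.01 and 0.09 (adjusted p = 0.968 and 0.791), and Bmp6 had LFCs of -0.28 and -0.45 without a call.

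The BMP type I receptors Bmpr1a and Bmpr1b were lower in both genotypes, with LFCs of -0.61 and -0.82 in control and -0.73 and -0.60 in DTR. For Bmpr1b in DTR the call ended when DTR IP replicate 1 or DTR input replicate 2, 3 or 4 was left out (adjusted p from 0.0533 to 0.0752), and with the compared groups alone (0.0537). Acvrl1, a type I receptor known from blood vessels, was at 16.3, 19.7, 20.1 and 20.6 CPM in control input and 6.0, 6.4, 6.90 and 8.94 CPM in control IP, and at 19.0, 19.9, 25.8 and 35.3 and 7.68, 8.69, 9.48 and 10.7 CPM in DTR input and IP. Every IP library was below every input library (LFC -1.34, SE 0.19, adjusted p = 1.81e-05 in control and LFC -1.40, SE 0.19, adjusted p = 1.39e-05 in DTR). The 7 endothelial markers were lower in IP in 7 of 7 cases in both genotypes, with summed levels of 287 to 343 CPM in input and 97.9 to 122 CPM in IP of control cochleae, and 365 to 456 and 156 to 178 CPM in those of DTR cochleae, and none at 0. Their part in the level of Acvrl1 was not tested.

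**Figure D5:**
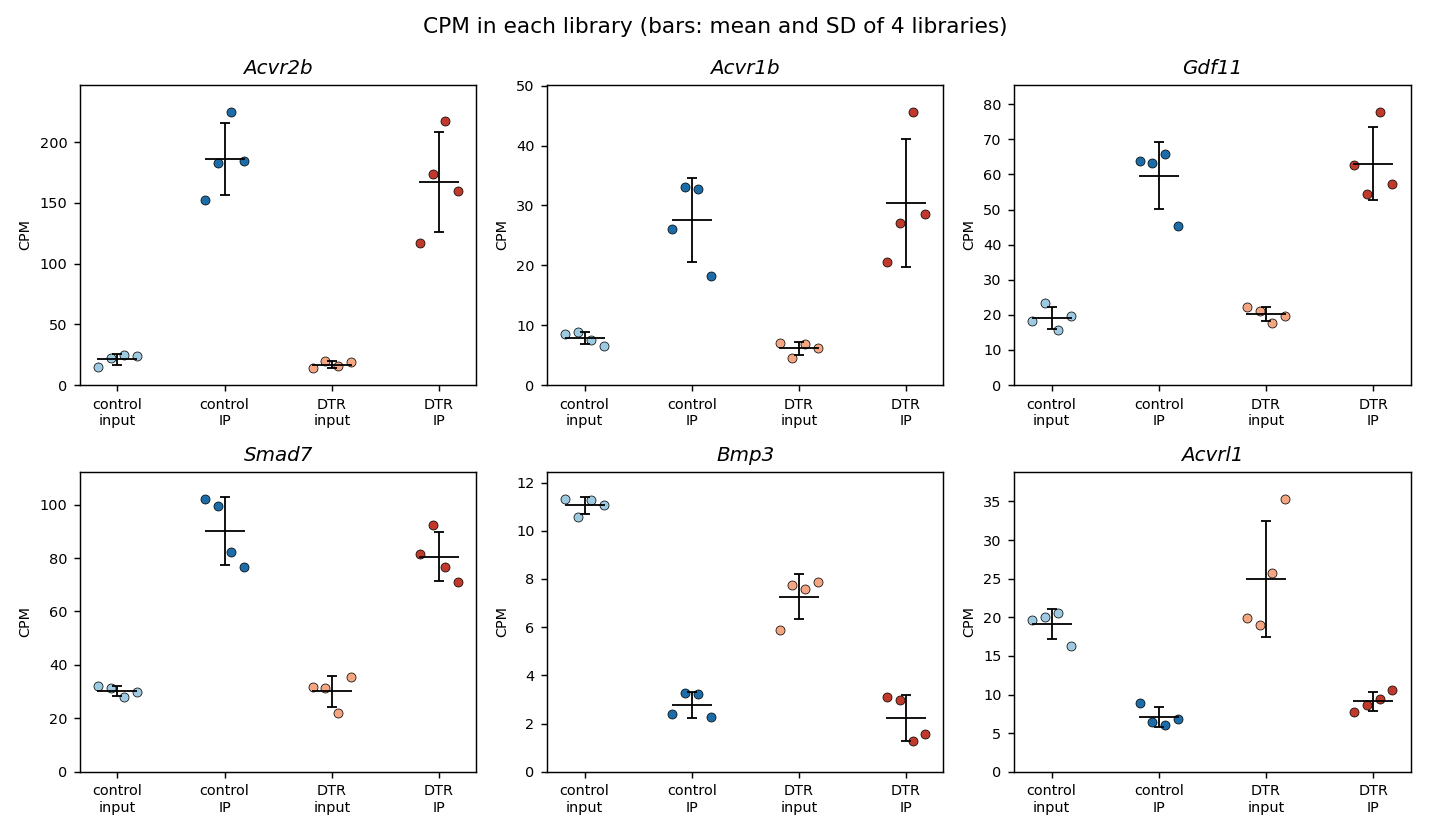
CPM (linear axis from 0) of Acvr2b, Acvr1b, Gdf11, Smad7, Bmp3 and Acvrl1 in each of the 16 libraries, with horizontal bars for the mean and vertical bars for the SD of the 4 libraries of a group. In control and DTR alike, IP libraries stand above input for the first 4 genes and below it for Bmp3 and Acvrl1.

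Tgfbr3, the type III co-receptor betaglycan, was higher in IP in control (LFC 0.80, SE 0.25, adjusted p = 0.0145) and in DTR (LFC 0.90, SE 0.25, adjusted p = 0.00705). Its control IP libraries ranged over 102 to 261 CPM and overlapped those of control input at 69.1 to 118 CPM, and the call in control ended when control IP replicate 2 or control input replicate 3 was left out (adjusted p from 0.0542 to 0.0629). The ligands of TGF-beta receptors were split. Tgfb2 was higher in control IP (LFC 0.45, adjusted p = 0.000471) and not called in DTR (0.20). Tgfb3 was lower in both genotypes (-0.39 and -0.31), and the call in DTR ended when DTR IP replicate 3 or DTR input replicate 4 was left out (adjusted p from 0.0511 to 0.0688), and with the compared groups alone (0.0545). Tgfb1 was lower in DTR IP (LFC -0.72, adjusted p = 0.00655), with an LFC of -0.44 in control (adjusted p = 0.0809). Acvr1, Tgfbr1, Bmpr2, Acvr2a and Tgfbr2 were called in neither genotype.

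Of the antagonists, Chrdl1 was lower in IP in control (LFC -0.33, SE 0.12, adjusted p = 0.0322) and in DTR (LFC -0.71, SE 0.12, adjusted p = 0.000114), and the call in control ended when control input replicate 1 or 4 or control IP replicate 1 or 3 was left out (adjusted p from 0.0767 to 0.102), and with no filter on low values (0.0512), with the exon length trend removed (0.149) and with edgeR (0.0607). The other 5 tested antagonists were called in neither genotype, and Fst had LFCs of -0.48 and -0.38 with its 4 control IP libraries spread from 13.5 to 47.3 CPM.

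Input and IP of a number came from 1 pool of cochleae, and with the pool as a block 13 members were called higher and 15 lower in control IP (beside 23.6% and 25.3% of all tested genes), and 11 higher and 17 lower in DTR IP (beside 22.5% and 25.6%). In control the block added Fst (adjusted p = 0.0105), Smad1 (0.0416), Smad4 (0.0195) and Tgfb1 (0.0112) as lower in IP, each of them lower in 4 of 4 pools, and Fstl1 (0.0486) and Smad9 (0.0449) as higher, in 4 of 4 pools. In DTR it added Bmp6 (adjusted p = 0.00445), Fst (0.0342), Smad2 (0.048) and Smad3 (0.0242) as lower, again in 4 of 4 pools, and Id2 (0.0185) as higher in 4 of 4.

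Whether the response to damage differed between IP and input was tested as an interaction. With limma 0 of the 42 members passed, beside 0.0118% of all tested genes. Chrdl1 (LFC in IP minus LFC in input -0.38, SE 0.17, adjusted p = 0.919) had an unadjusted p under 0.05. For Inhbb the difference was -1.02 (SE 0.35). It passed the filter on low values through the control libraries alone, so no p-value of this difference is given. With edgeR and DESeq2 0 members passed as well, with 4 and 5 members, Inhbb included, at an unadjusted p under 0.05. Over all tested genes edgeR called 0, and DESeq2 called 24 higher and 25 lower. For Bmp4, Inhba and Fst the difference between the LFCs was 0.08, 0.01 and 0.10, with SEs of 0.32, 0.34 and 0.40. The 7 members called lower in both sample types were Bmp4, Fst, Fstl1, Id4, Inhba, Inhbb and Smad6, which are 70.0% of the 10 lower calls in IP and 87.5% of the 8 in input. The place of Inhbb in these counts rests on its selection through the control libraries. No such shares over all tested genes were worked out. Input and IP of a number shared a pool, so the calls in the sample types are not independent, and the shares say nothing particular to the members.

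A wider list of 69 pathway genes outside the 43 gave 49 that were tested. After damage, 6 of these were higher (12.2%) and 5 lower (10.2%) in IP, and 3 were higher (6.12%) and 5 lower (10.2%) in input, beside 8.44% and 7.30% of all tested genes in IP and 7.17% and 5.21% in input. Amhr2, the type II receptor for anti-Muellerian hormone, ranged over 0.147 to 0.553 CPM in control against 4.73 to 6.88 CPM in DTR for IP, and over 0 to 0.484 against 4.37 to 6.64 CPM for input, without overlap. Gdf15, a distant family member known as a stress-induced cytokine, ranged over 0.145 to 0.422 CPM in control input and 1.83 to 3.20 CPM in DTR input. Both passed the filter on low values through the DTR libraries alone, so no test of them is given. Where they were called, they are part of the counts of higher genes above, which rest on that selection to this extent. Between IP and input, 11 were higher (22.4%) and 21 lower (42.9%) in control, and 11 were higher (22.4%) and 15 lower (30.6%) in DTR, beside 19.3% and 20.7% of all tested genes in control and 18.6% and 20.5% in DTR. Large changes were met in control by Lefty1, an antagonist of Nodal (LFC 1.47), by the intracellular regulators Pmepa1 (1.26) and Tob2 (1.13), and, downward, by the membrane protein Crim1 (-1.25), and in DTR by Pmepa1 alone (1.17).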

How the data were processed

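RNA from 16 libraries was prepared with the SMART-Seq v4 kit. The authors aligned reads to GRCm38, with HISAT2 by the paper's methods and TopHat by the submitters' processing notes, counted reads on genes with HTSeq and deposited CPM (reads on a gene scaled to the sum over genes in that library). The annotation release and strand setting were not given in the sources used here. Of 50316 genes listed, 2587 were NA in every library. All CPM above 0 were whole multiples of 1 read (tolerance 0.01 read), so whole reads were recovered for edgeR (4.0.16, quasi-likelihood, TMM) and DESeq2 (1.42.0).

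The values tested were log2(quantile-normalized CPM + 0.5). A gene had to reach 0.5 CPM in each of the 4 libraries of some group, and the tool was limma (3.58.1, R 4.3.3, mean-variance trend, two-sided, 4 group means over 16 libraries, Benjamini-Hochberg adjustment over 16994 genes). For separation, values below 1.08 CPM (percentile 10) were raised to it. Exon lengths, positions and overlaps came from GENCODE M21 and the start sites from RefSeq. Same-numbered libraries deviated together in every pair (correlation of deviations 0.288 to 0.559), input and IP of a number being 1 pool. With the pool or number as a block, all 65 called member changes remained and 15 were added.

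Members and lists were chosen with earlier results of these data known. Every library's values are given for members among the 8 called changes of largest absolute LFC in a comparison. Alternatives were other scalings, pseudocounts, filters, tools and groups, calls without the separation criterion, the replicate block, each library left out and, chosen after seeing the data, removal of a trend with exon length.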

Additional observations from a re-analysis of the deposited data

Results flagged for a closer look

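In 10 of the 168 sets of 4 libraries (42 tested members in 4 groups), the highest or the lowest library stood apart from the other three by a larger share of the range of the set than Dixon's critical value for 4 libraries, which chance passes in about 1 of 20 sets. The gap was 0.925 of the range for Smad6 in control IP (110.6 CPM in replicate 3, others 136 to 138), 0.872 for Gdf11 in control IP (45.3 CPM in replicate 4, others 63.3 to 66.0) and 0.865 for Id4 in control IP (94.0 CPM in replicate 4, others 119.7 to 123.7). It was 0.835 for Bmpr1b in control IP (23.6 CPM in replicate 2, others 15.4 to 16.8) and 0.864 for Chrd in control IP (7.79 CPM in replicate 3, others 12.6 to 13.4). In DTR input it was 0.837 for Bmp2 (7.45 CPM in replicate 2, others 6.09 to 6.31), 0.862 for Bmp3 (5.88 CPM in replicate 1, others 7.58 to 7.86), 0.888 for Nog (3.35 CPM in replicate 3, others 4.00 to 4.08) and 0.864 for Chrd (15.2 CPM in replicate 4, others 11.1 to 11.6). In DTR IP it was 0.839 for Smad9 (9.24 CPM in replicate 3, others 3.82 to 4.70), the library on which the call of Smad9 in DTR rested.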

How the results depend on the processing

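Of 65 called changes of members, 49 kept their direction and call in each of the 27 alternatives that tested them, and 0 reversed. The filter of at least 2 CPM left Inhbb out, so its changes were not tried there. Calls were lost for 8 changes with no filter on low values, 6 with edgeR, 6 with the compared groups alone, 4 without quantile normalization, 4 with library medians centred, 3 with DESeq2, 2 with the exon length trend removed and 1 with a pseudocount of 0.1, and in 68 of 1040 refits that left out 1 library. The replicate block added 15 calls. No call was lost with a pseudocount of 1, with the replicate block or, for the 62 changes it could test, with at least 2 CPM. The count of members higher in DTR IP went from 1 to 0 without quantile normalization, with library medians centred, with the compared groups alone, with edgeR and with DESeq2, and ranged from 0 to 1 with 1 library left out. That of members higher in DTR input went from 1 to 0 without quantile normalization, with library medians centred, with no filter, with edgeR and with DESeq2, and likewise ranged from 0 to 1. Without the separation criterion, large changes in input rose from 2 to 4. The cause of these losses was not tested. Changes with exon length across 16933 genes were weak (Spearman rho of LFC with length -0.139 in control and -0.083 in DTR for IP against input). Depth limits Inhbb and Grem1, whose lowest libraries held 1 and 0 reads.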
